A study of Homo sapiens with 6 samples.

Results

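The HOX cluster genes were the 39 protein-coding genes whose symbol is HOXA, HOXB, HOXC or HOXD followed by a number, out of 60660 genes in the count files. Antisense RNAs of the clusters were left out of this set and are described apart from it. Expression was measured by RNA-sequencing of poly-A RNA in 12Z cells, an immortalized epithelial line derived from endometriosis, 72 h after transfection. The 3 control libraries came from cells given a non-targeting siRNA, and the 3 knockdown libraries from cells given siRNA LINC01133a against the long noncoding RNA LINC01133 at 10 nM. All 6 libraries are from 1 cell line and 1 time point, and 1 siRNA against LINC01133 was used, so an effect of LINC01133 and an effect of this oligo on other RNAs cannot be told apart. The comparison asks how the RNA levels of 12Z cells differ once LINC01133 is reduced, and it is described here along each HOX cluster.

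HOX genes encode homeodomain transcription factors that give cells their position along the body axis. They lie in clusters in which genes with low numbers are used at the anterior end and genes with high numbers at the posterior end, and genes of 1 number in different clusters are paralogues. In the female reproductive tract, HOXA9, HOXA10, HOXA11 and HOXA13 mark successive regions from the oviduct through the uterus to the cervix and upper vagina, and HOXA10 and HOXA11 are needed in the endometrium for implantation. HOX proteins bind DNA together with TALE homeodomain partners of the PBX, MEIS and PKNOX families. MicroRNAs of the miR-10 and miR-196 families are encoded inside the clusters.

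In GRCh38, the 11 HOXA genes lie on the minus strand of chromosome 7. The 10 HOXB genes span 200.2 kb of the minus strand of chromosome 17, from 48528526 to 48728750. The 9 HOXC genes lie on chromosome 12, plus strand, from 53938831 to 54056030, and the 9 HOXD genes on chromosome 2, also plus strand, from 176092721 to 176190907. In the GENCODE v44 annotation, 16 members share exon bases with another gene on their own strand, and HOXC5 is the member with the largest shared part, since 32.7% of its exon bases are its own. Reads on shared bases are not counted for either gene, so the level of such members can be too low.

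The libraries held 27742562 to 37551194 counts on genes. LINC01133 itself was counted 859, 726 and 808 times in the 3 controls, against 153, 135 and 122 times after knockdown. Control replicate 2 stood apart from the other controls, with a chi-square per gene of 11.8 and 12.8 against them, whereas the other control pair had 3.73 and the knockdown pairs 2.21 to 3.48. Values without this library are given where they change a call of a gene named here. By the edgeR test described below, 5 of 7 epithelial markers were lower in knockdown cells at an adjusted p under 0.05. Of all genes tested, 25.0% were lower and 23.3% higher by this test. The summed level of the 7 was 6199 to 6539 CPM (counts scaled to the library total) in control and 3969 to 4151 in knockdown libraries. The levels differed widely within this list. EPCAM had 9 to 26 counts per library, whereas KRT8, KRT18 and KRT19 had means of 104600, 57530 and 39960 normalized counts in control cells. Of 8 stromal markers, 6 were lower by the same test, or 5 without control replicate 2. Their summed level was 5081 to 5663 CPM in control and 4439 to 4682 in knockdown libraries. Here too the levels differed, with means in control cells of 87700 normalized counts for COL1A1, 52850 for VIM and 249 for PDGFRA. Of the 3 endothelial markers CDH5 was higher by this test and PECAM1 had 0 to 3 counts (summed 2.47 to 2.84 against 5.50 to 6.78 CPM). Of the 3 leukocyte markers CD14 was lower by this test and CD3E was at 0 in every library (49.9 to 56.3 against 26.1 to 27.96 CPM). The part of these shifts in the HOX results was not tested, and in bulk RNA fewer cells of a type and less RNA per cell cannot be told apart.

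In control cells, 20 of the 39 HOX genes were on, taken as a mean RPKM of at least 1, where RPKM is the count scaled by exon length and by the TMM-scaled library total. They were 10 of 11 HOXA genes, 7 of 10 HOXB genes, 3 of 9 HOXC genes and 0 of 9 HOXD genes. By number, 8 of the 12 genes numbered 1 to 4 were on, 8 of the 11 numbered 5 to 8, and 4 of the 16 numbered 9 to 13. The genes of high number that were on were HOXA9, HOXA10, HOXA11 and HOXB9. The HOXA cluster gave 63.4% ± 0.207 (SD, n = 3) of the summed HOX RPKM of control cells, HOXB 31.5% ± 0.0914, HOXC 4.11% ± 0.050 and HOXD 1.04% ± 0.126.

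**Figure D1:**
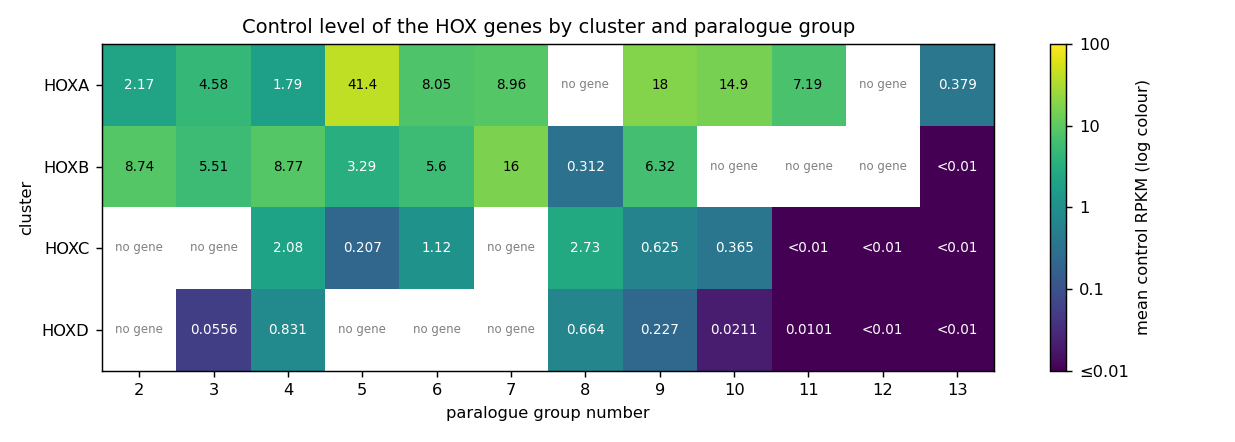
Mean control level (RPKM, log colour, 3 libraries) of the HOX genes of paralogue groups 2 to 13, by cluster (rows) and group number (columns), with the value in each cell and white where the genome has no gene. The HOXA row is on from HOXA2 to HOXA11, with 41.4 at HOXA5 the highest, and the HOXD row lies below 1 throughout.

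HOXA5, which patterns the lung and other organs, was the highest HOX gene, with 41.4 ± 0.329 RPKM (SD, n = 3) in control cells. HOXA9 followed with 18.0 ± 0.561, HOXB7 with 16.0 ± 0.231 and HOXA10 with 14.9 ± 0.192 RPKM. HOXA7 (8.96 ± 0.229), HOXB4 (8.77 ± 0.184), HOXB2 (8.74 ± 0.388) and HOXA6 (8.05 ± 1.44 RPKM) did not differ beyond their spread from the next in order. HOXA11 had 7.19 ± 0.331 RPKM, HOXB9 6.32 ± 0.353, HOXB6 5.60 ± 0.533 and HOXB3 5.51 ± 0.217. These 12 genes were those at 5 RPKM or more, and all 12 are in HOXA or HOXB. The spread between libraries was widest among them for HOXA6, whose normalized count was 403 in control replicate 1 and 292 and 309 in the others.

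The other genes that were on lay between 1 and 5 RPKM. Among them HOXA3, which patterns the pharyngeal arches, had 4.58 ± 0.319 RPKM, HOXB5 3.29 ± 0.158, HOXA2 2.17 ± 0.184 and HOXA4 1.79 ± 0.513. The 3 HOXC genes were HOXC8 with 2.73 ± 0.134, HOXC4 with 2.08 ± 0.134 and HOXC6 with 1.12 ± 0.0882 RPKM. HOXC6 was the lowest gene called on and HOXD4, with 0.831 ± 0.216 RPKM, the highest called off.

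Within the active clusters, the level dropped at single genes. HOXB8 had 0.312 ± 0.0777 RPKM in control cells, between HOXB7 with 16.0 and HOXB9 with 6.32. Its counts were 19, 22 and 29 in the control and 41, 27 and 29 in the knockdown libraries, against 708 to 820 counts of HOXB7 in control libraries. HOXA13, the most posterior HOXA gene, had 0.379 ± 0.0130 RPKM next to HOXA11 with 7.19. At the ends of the HOXB cluster, HOXB1, a hindbrain gene, and HOXB13, known from the prostate, each had 0 counts in the control libraries and 1 count in a single knockdown library. A count of 0 allows up to 3 counts per library, a limit that covers counting error only.

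The 11 genes below 0.1 RPKM in control cells were HOXB1, HOXB13, HOXC11, HOXC12, HOXC13, HOXD1, HOXD3, HOXD10, HOXD11, HOXD12 and HOXD13. HOXC11 to HOXC13 had at most 2 counts in any library, and HOXD12 had 0 in all 6. HOXD3 reached 10 counts and HOXD10 reached 7. Between HOXD3 and HOXD10, the HOXD genes detected were HOXD4, HOXD8 (0.664 ± 0.0396 RPKM) and HOXD9 (0.227 ± 0.0109). HOXC9 had 0.625 ± 0.239, HOXC10 0.365 ± 0.0522 and HOXC5 0.207 ± 0.0536 RPKM.

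**Figure D2:**
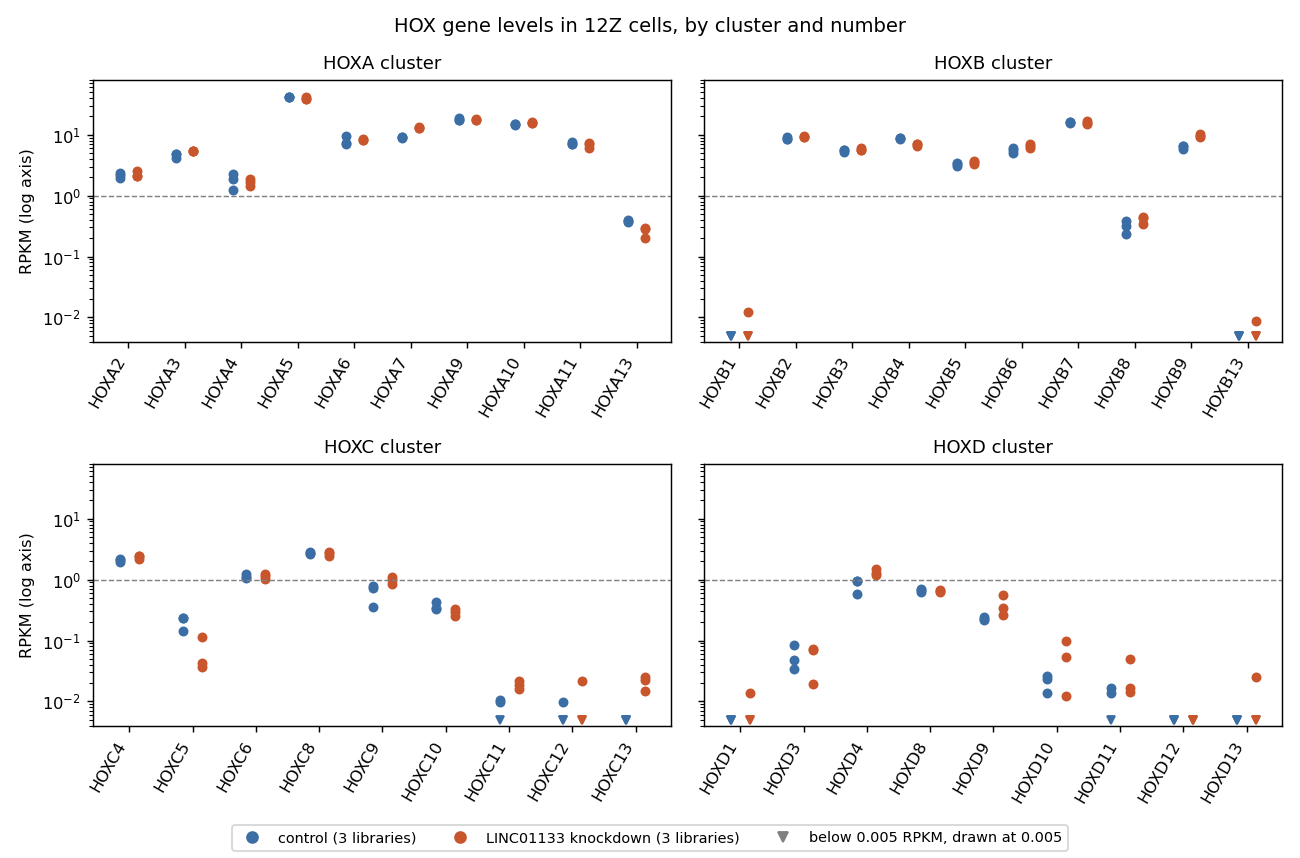
RPKM (log axis) of 38 HOX genes in each of the 3 control (blue) and 3 knockdown (orange) libraries, ordered by number within each cluster, with values under 0.005 drawn as triangles at 0.005 and the level of 1 RPKM dashed. HOXB8 and HOXA13 lie below 1 RPKM beside neighbours above 5, and HOXC11 to HOXC13 and HOXD10 to HOXD13 lie below 0.1 RPKM.

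The microRNAs of the clusters are shown because miR-196, encoded next to HOXB9, HOXC10 and HOXA10, has HOXB8 as its textbook target. HOXB8 was low between HOXB7 and HOXB9, while HOXB1 and HOXB13 were lower still. A part of miR-196 in any of these levels was not tested. Mature microRNAs are not captured in poly-A libraries and were not measured here. The mature strands from RefSeq (GRCh38) are printed 5′ to 3′ with the seed, bases 2 to 8, in capitals, and the miR-196 members share 1 seed.
hsa-miR-10a-5p: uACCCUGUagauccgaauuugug
hsa-miR-196a-5p: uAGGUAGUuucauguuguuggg
hsa-miR-196b-5p: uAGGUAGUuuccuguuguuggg
MIR10A lies at chr17:48579904-48579926 on the minus strand, between HOXB4 and HOXB5. The copies of miR-196 lie at chr17:48632532-48632553 and chr7:27169528-27169549 on the minus strand and chr12:53991762-53991783 on the plus strand. The 3′ UTR of HOXB8 holds a stretch at chr17:48612770-48612791 on the minus strand that matches the complement of miR-196a-5p in 21 of 22 bases (matching bases in capitals).
HOXB8: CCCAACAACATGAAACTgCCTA
The difference is A18G, counted from 1 at the 5′ end of the complement, with the base of the complement first. The next best member, HOXA7, matched 15 of 22 bases, and the lowest of the 39 members matched 11.

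For the comparison, 27 of the 39 HOX genes passed the filter on low counts, 11 of HOXA, 8 of HOXB, 5 of HOXC and 3 of HOXD. The quasi-likelihood test of edgeR was run on 15155 genes, with p-values adjusted over all of them by the Benjamini-Hochberg method. By this test, 6 HOX genes were higher in knockdown cells at an adjusted p under 0.05, where 23.3% of all genes tested were. Another 2 were lower, where 25.0% of all genes tested were. At the cutoffs of the study, which add a fold change over 1.5, differential expression (DE) was called for 3 HOX genes that were higher (5.30% of all genes) and for 0 that were lower (6.43% of all genes). At an unadjusted p under 0.05, 9 HOX genes were higher (27.1% of all genes) and 2 lower (27.9% of all genes), none of the lower ones with a fold change over 1.5, and DESeq2 also called 0 DE genes lower. Read against these shares, 6 of 27 higher is close to that of all genes and 2 of 27 lower is below it, and neither count was tested. Without control replicate 2, the library that stood apart, the calls of HOXA3, HOXA7 (log2 fold change 0.54), HOXA13 (-0.53), HOXB4 (-0.36), HOXB9 (0.63) and HOXC9 (0.87) were kept and those of HOXB6 and HOXD4 were lost. All 3 knockdown libraries lay above all 3 control libraries for 10 HOX genes (28.3% of all genes) and below them for 3 (29.0% of all genes), and for 14 the groups overlapped. The median log2 fold change of the 27 genes was 0.05, with 17 positive values, and that of all genes 0.0032. Without knockdown replicate 1 the count of higher HOX genes was 3, and without knockdown replicate 3 that of lower ones was 1. The count of higher DE genes was 1 without control replicate 1 or knockdown replicate 1 and 0 without knockdown replicate 2.

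**Figure D3:**
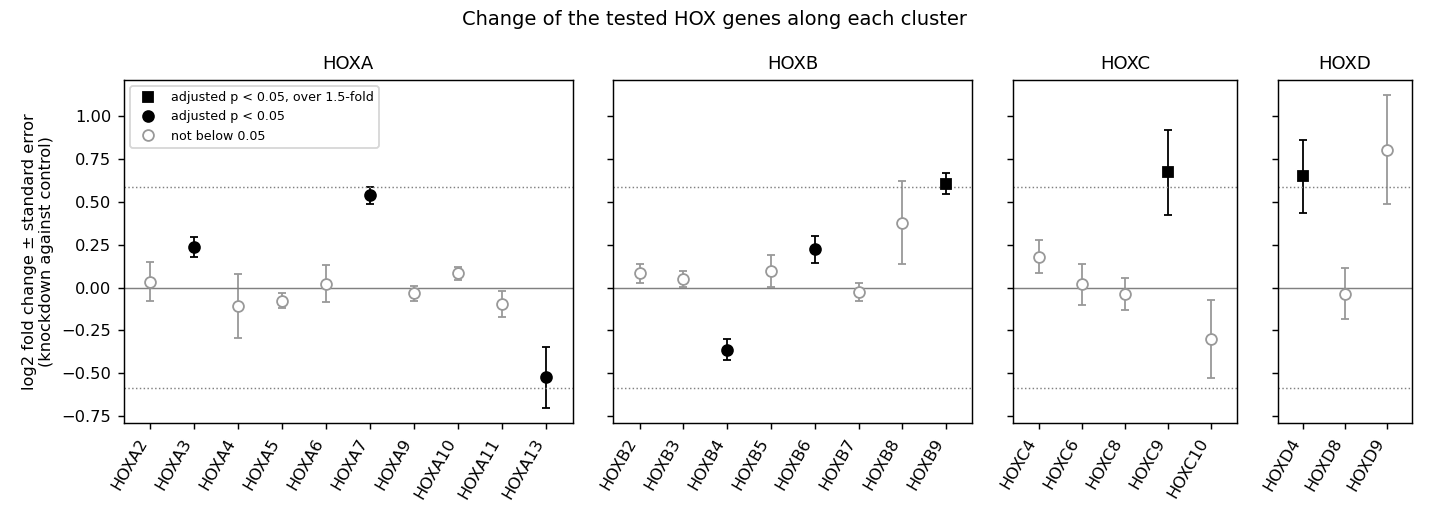
Log2 fold change of knockdown against control with its standard error for 26 of the HOX genes tested, in order along each cluster, with filled symbols for an adjusted p under 0.05, squares for DE genes, and dotted lines at a fold change of 1.5. HOXA7 (0.54), HOXB9 (0.61), HOXC9 (0.67) and HOXD4 (0.65) are the highest filled points, and HOXA13 (-0.52) and HOXB4 (-0.36) the filled points below 0.

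In the HOXA cluster, HOXA7 and HOXA3 rose and HOXA13 fell. HOXA7 (ENSG00000122592.8), a gene of the middle of the cluster, had normalized counts of 715, 704 and 679.8 in controls, against 1032, 1021 and 994 after knockdown. The groups lay far apart, the lowest knockdown library being above the highest control library by more than the range of either group. The mean rose from 699.5 ± 17.9 to 1015 ± 19.4 (SD, n = 3 each), or 0.54 ± 0.049 (SE) on the log2 scale (edgeR adjusted p = 1.47e-06). This was 1.45-fold, just under the cutoff for DE, and the log2 fold change lay from 0.52 to 0.56 as each library was dropped. Scaled by library size alone, it reached 0.60 and passed the cutoff.

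HOXA3 (ENSG00000105997.22) had normalized counts of 664.5, 588 and 665 in control and 764, 755.5 and 744 in knockdown libraries. The control libraries spread more than the knockdown libraries, and the lowest value was that of control replicate 2. The log2 fold change was 0.24 ± 0.060 (SE, edgeR adjusted p = 0.00523), and 0.18 without control replicate 2. HOXA13 (ENSG00000106031.9) had 64.4, 62.0 and 60.1 normalized counts in control and 46.6, 48.55 and 32.9 in knockdown libraries. Knockdown replicate 3 was the lowest, and the other knockdown libraries lay closer to the controls. The log2 fold change of HOXA13 was -0.52 ± 0.18 (SE, edgeR adjusted p = 0.0253). Its call was lost without knockdown replicate 3 (-0.38, adjusted p = 0.0908), without control replicate 1 (-0.50, adjusted p = 0.0743) and with DESeq2 (-0.54, adjusted p = 0.0993). Without knockdown replicate 1 (-0.59) or knockdown replicate 2 (-0.61), HOXA13 passed the cutoff for DE.

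The other 8 HOXA genes did not pass the test. HOXA5 had 2307 ± 18.3 normalized counts in control and 2192 ± 96.9 in knockdown cells, or -0.08 ± 0.042 (SE) on the log2 scale (edgeR adjusted p = 0.152). The endometrial regulator HOXA10 had 1790 ± 23.0 and 1895 ± 16.3, a log2 fold change of 0.08 ± 0.038 (SE, edgeR adjusted p = 0.0888). All knockdown libraries lay above all control libraries for HOXA10, at a fold of 1.06, and among the alternatives it passed the test only with library size alone as scaling (0.14). HOXA9 had a log2 fold change of -0.03 and HOXA11 of -0.10, and for both the groups overlapped. HOXA2 (0.04), HOXA4 (-0.11) and HOXA6 (0.02) had overlapping groups, and without control replicate 2 the values of HOXA4 (0.08) and HOXA6 (-0.07) changed sign.

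HOXA7 lies between HOXA6 and HOXA9 on the same strand, neither of which passed the test. Its count relative to HOXA9 was 0.410, 0.385 and 0.394 in control and 0.608, 0.5995 and 0.5597 in knockdown libraries. Relative to HOXA5 it was 0.303 ± 0.00915 in control and 0.464 ± 0.0286 in knockdown cells (SD, n = 3 each). These ratios do not depend on scaling between libraries. The pairs were chosen after their values were seen, and no test was made. The promoters of HOXA7 and of its neighbour HOXA9 from RefSeq (GRCh38.p14) are shown from 250 bases before to 50 after the start, in the direction of transcription, with each CpG in capitals, to compare the member that rose with one that did not pass the test. The first is chr7:27156626-27156925 and the second chr7:27165488-27165787, both on the minus strand.
HOXA7: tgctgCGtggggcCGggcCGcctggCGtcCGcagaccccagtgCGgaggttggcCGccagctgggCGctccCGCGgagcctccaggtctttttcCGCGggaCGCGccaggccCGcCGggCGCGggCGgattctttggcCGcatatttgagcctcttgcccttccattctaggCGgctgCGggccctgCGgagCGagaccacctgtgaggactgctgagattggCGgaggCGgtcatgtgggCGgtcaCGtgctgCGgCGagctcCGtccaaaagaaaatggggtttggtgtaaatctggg
HOXA9: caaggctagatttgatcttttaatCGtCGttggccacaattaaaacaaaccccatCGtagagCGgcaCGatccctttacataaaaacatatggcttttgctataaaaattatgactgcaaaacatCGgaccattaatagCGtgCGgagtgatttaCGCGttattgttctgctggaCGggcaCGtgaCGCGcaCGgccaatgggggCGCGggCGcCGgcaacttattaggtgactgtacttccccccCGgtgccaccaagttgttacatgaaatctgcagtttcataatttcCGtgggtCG
The HOXA7 window held 31 CpG and had 68% G or C, and that of HOXA9 22 CpG and 48%. The window of HOXA6, the other neighbour that did not pass the test, held 29 CpG and had 60.3%. That of HOXA13, which fell, held 44 CpG and had 76.3%. Other windows went the other way. That of HOXD4, which rose, held 4 CpG and had 47.3%. The windows of HOXA3, which also rose, held 0 to 29 CpG. That of HOXD8, which did not pass the test, held 34 CpG and had 71.7%. A part of CpG content in the changes was not tested. The median of all 35116 windows in the table was 14 CpG, and that of the 27 windows found for 20 HOX genes was 22. The sequence TGATNNAT, a form of the joint binding motif of PBX and HOX proteins, was searched on both strands. It was in neither window, in 3 of the 27 HOX windows (HOXA2, HOXB1 and HOXD11) and in 7.4% of all windows.

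In the HOXB cluster, HOXB9 and HOXB6 rose and HOXB4 fell. HOXB9 (ENSG00000170689.10), the last expressed gene at the posterior end of the cluster, had normalized counts of 495, 549.7 and 542 in control and 801, 849.7 and 760.1 in knockdown libraries. The groups did not overlap, and the gap between them was wider than the range of either. The mean rose from 529 ± 29.6 to 804 ± 44.8 (SD, n = 3 each), or 0.61 ± 0.064 (SE) on the log2 scale (edgeR adjusted p = 4.93e-06). This was 1.52-fold, just over the cutoff. The adjusted p stayed below 0.05 with each library left out, while the log2 fold change dropped under the cutoff without control replicate 1 (0.56) or knockdown replicate 2 (0.57).

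HOXB4 (ENSG00000182742.6), known as a regulator of blood stem cells, had 576.5, 573 and 554 normalized counts in control and 458, 420.5 and 448 in knockdown libraries. All knockdown libraries were below all control libraries, with a gap wider than the range within either group. The mean fell from 568 ± 12.0 to 442 ± 19.4 (SD, n = 3 each), or -0.36 ± 0.063 (SE) on the log2 scale (edgeR adjusted p = 3.64e-04). It ranged from -0.39 to -0.32 as each library was dropped. HOXB6 (ENSG00000108511.10) had 514, 425 and 477 normalized counts in control and 557, 517 and 585 in knockdown libraries. Control replicate 1 nearly reached knockdown replicate 2, and control replicate 2 was the lowest. Its log2 fold change was 0.22 ± 0.078 (SE, edgeR adjusted p = 0.0304). The call of HOXB6 was lost without control replicate 2 (0.15, adjusted p = 0.0991), control replicate 3 (0.23, adjusted p = 0.058), knockdown replicate 1 (0.22, adjusted p = 0.0798) or knockdown replicate 3 (0.19, adjusted p = 0.106), with DESeq2 (0.22, adjusted p = 0.0561) and with unstranded counts (0.19, adjusted p = 0.165).

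The other 5 HOXB genes tested did not pass. HOXB7 had 789 ± 11.4 normalized counts in control and 776 ± 38.4 in knockdown cells (SD, n = 3 each). HOXB3 had 1325 ± 52.3 and 1373 ± 56.8, and HOXB2 694 ± 30.9 and 737 ± 17.5. The log2 fold changes of HOXB2, HOXB3, HOXB5, HOXB7 and HOXB8 lay between -0.02 and 0.38, and the groups overlapped for all 5. HOXB8 had the highest of these, 0.38, with a standard error of 0.24 (adjusted p = 0.217). Adjacent HOXB genes therefore stood on different sides of the test, which does not by itself show that their changes differ. HOXB8 lies between HOXB7 and HOXB9, and its standard error was wide. The count of HOXB9 relative to HOXB7 was 0.638, 0.689 and 0.683 in control and 1.07, 1.04 and 1 in knockdown libraries. That of HOXB4 relative to HOXB3 was 0.429 ± 0.0222 in control and 0.322 ± 0.0156 in knockdown cells (SD, n = 3 each). These pairs were also chosen after their values were seen and were not tested.

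**Figure D4:**
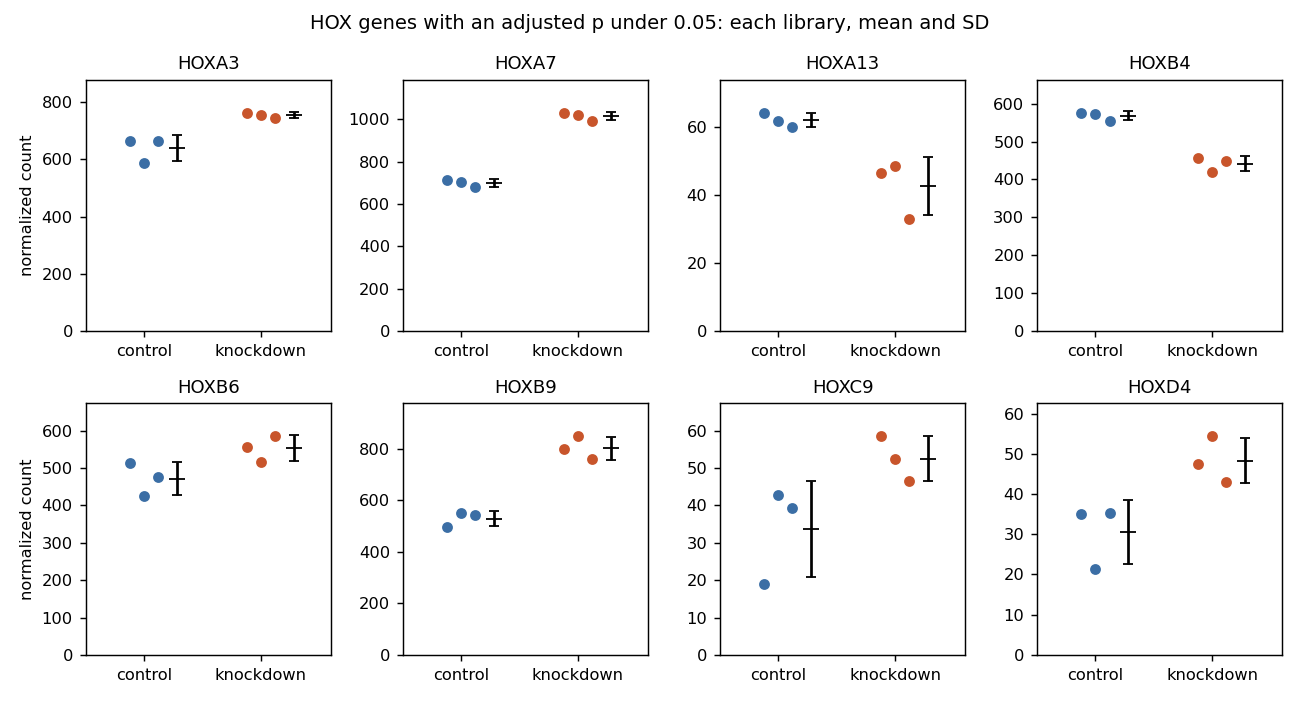
Normalized counts of the 8 HOX genes with an adjusted p under 0.05 in each control (blue) and knockdown (orange) library, with the mean and SD of 3 libraries in black. The groups are separated for all 8, narrowly for HOXB6, HOXC9 and HOXD4, and the count is under 70 per library for HOXA13, HOXC9 and HOXD4.

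In the HOXC and HOXD clusters, both calls were of genes with low counts. HOXC9 (ENSG00000180806.5) had 18.9, 42.8 and 39.4 normalized counts in control and 58.5, 52.4 and 46.5 in knockdown libraries. Control replicate 1 was far below the other controls, which came close to knockdown replicate 3. The log2 fold change was 0.67 ± 0.25 (SE, edgeR adjusted p = 0.0385), a DE call. It was lost without control replicate 1 (0.37, adjusted p = 0.166), knockdown replicate 1 (0.58, adjusted p = 0.132) or knockdown replicate 2 (0.68, adjusted p = 0.0793), with DESeq2 (0.65, adjusted p = 0.0934) and with the replicate number as a block (0.68, adjusted p = 0.0507). HOXD4 (ENSG00000170166.6) had 35.0, 21.4 and 35.2 normalized counts in control and 47.5, 54.4 and 43.1 in knockdown libraries. Here control replicate 2 was the lowest. The log2 fold change of HOXD4 was 0.65 ± 0.21 (SE, edgeR adjusted p = 0.0228), also a DE call. It was lost without control replicate 2 (0.46, adjusted p = 0.0898), knockdown replicate 1 (0.67, adjusted p = 0.0521) or knockdown replicate 2 (0.56, adjusted p = 0.0876), and with DESeq2 (0.65, adjusted p = 0.0864). With 1.31 ± 0.155 RPKM in knockdown cells, HOXD4 was the only HOX gene on in these cells and not in control cells.

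HOXD9 had 13.2, 13.5 and 14.5 normalized counts in control and 33.9, 20.4 and 15.9 in knockdown libraries. Its log2 fold change of 0.80 was the highest among the 27 genes, but its edgeR adjusted p, 0.0512, missed the threshold. It passed both cutoffs with library size alone (adjusted p = 0.0357), no filter on low counts (adjusted p = 0.0305), at least 10 counts in every library (adjusted p = 0.0424) and unstranded counts (adjusted p = 0.0374), but not with DESeq2 (adjusted p = 0.178). Knockdown replicate 1 was the highest, and without it the log2 fold change of HOXD9 was 0.41 (adjusted p = 0.337), while without knockdown replicate 3 it was 1.00 (adjusted p = 0.0222). HOXC10 was at -0.30 (adjusted p = 0.298) and HOXC4 at 0.18 (adjusted p = 0.142), while HOXC6 (0.02), HOXC8 (-0.04) and HOXD8 (-0.03) lay close to 0 with overlapping groups. Of the 12 members not tested, HOXC5 had the most counts in control cells, with 8, 11 and 12 in control and 7, 2 and 2 in knockdown libraries. Without the filter on low counts, HOXC5 was at -1.56 on the log2 scale (adjusted p = 0.0145, edgeR), with 32.7% of its exon bases shared with no other gene on its strand. HOXC5 was also called by edgeR without control replicate 1 and without knockdown replicate 1, but not by DESeq2. The other 11 had at most 10 counts in any library. With no filter or with DESeq2, 38 of the 39 members entered the fit, and of the 11 none was called. At such counts a call could hardly be reached, so this does not show that they were unchanged.

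The summed RPKM of all 39 HOX genes was 173.5 ± 1.58 in control and 180.9 ± 2.46 in knockdown cells (SD, n = 3 each). The HOXA sum was 109.9 ± 0.917 and 113 ± 2.55, the HOXB sum 54.6 ± 0.558 and 57.7 ± 0.546, the HOXC sum 7.14 ± 0.0480 and 7.54 ± 0.158, and the HOXD sum 1.81 ± 0.231 and 2.50 ± 0.253 in control and knockdown cells. In knockdown cells HOXA gave 62.6% ± 0.626 of the sum, HOXB 31.9% ± 0.344, HOXC 4.17% ± 0.133 and HOXD 1.38% ± 0.156 (SD, n = 3 each). The HOXA share of 62.2%, 62.2% and 63.3% in the knockdown libraries overlapped the 63.4%, 63.6% and 63.2% of the control libraries. The small HOXD share, 1.12%, 0.897% and 1.11% in control and 1.5%, 1.44% and 1.21% in knockdown libraries, did not overlap. Most of the share in both groups came from HOXD4 and HOXD8. From control to knockdown cells, mean RPKM went from 0.831 to 1.31 for HOXD4, from 0.227 to 0.386 for HOXD9 and from 0.664 to 0.650 for HOXD8.

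The 3′ UTRs of the HOX genes were searched for matches to the miR-196 seed, the miR-10a seed and the strands of the siRNA. The siRNA strands are printed with their overhangs, and the seed, bases 2 to 8, is in capitals.
guide strand: uCCAUUCUcagguaacuucaa
passenger strand: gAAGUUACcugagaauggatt
The match to the miR-196 seed, ACTACCT, was in the 3′ UTR of 8 of the 39 HOX genes and of 6 of the 27 tested, against 8.03% of 12553 tested genes with an annotated 3′ UTR. The 6 were HOXA5, HOXA7, HOXA9, HOXB6, HOXB7 and HOXC8. Of these, HOXA7 and HOXB6 were called higher in knockdown cells, where 23.3% of all genes tested were, and the others did not pass the test. HOXA7 holds 4 matches within 1196 bases, at chr7:27154597-27154615, chr7:27154560-27154578, chr7:27154445-27154463 and chr7:27154427-27154445 on the minus strand. HOXB6 holds 1, at chr17:48595931-48595949 on the minus strand. These are shown with the match in capitals, and the 4 of HOXA7 are numbered from the stop codon.
HOXA7 site 1: tccaaaatACTACCTagca
HOXA7 site 2: acccccaaACTACCTatgt
HOXA7 site 3: atctcactACTACCTactc
HOXA7 site 4: cccctaaaACTACCTattt
HOXB6: gagcacatACTACCTagaa
HOXA9 holds 2 matches and HOXC8 3, and neither gene passed the test for a difference in level. HOXA5 (log2 fold change -0.08) and HOXB7 (-0.02) also hold a match and did not pass it. A match to the miR-10a seed, ACAGGGT, was in HOXA3 and HOXB3, among others, and in 14.8% of the tested genes.

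The match to the seed of the siRNA guide strand, AGAATGG, was in the 3′ UTR of 5 HOX genes, of which HOXA11 and HOXA13 were tested, and in 17.1% of all tested genes with a 3′ UTR. HOXA13, which fell, holds it at chr7:27198093-27198111, and HOXA11, with a log2 fold change of -0.10 that did not pass the test, at chr7:27181417-27181435, both on the minus strand.
HOXA13: ataattgaAGAATGGgaaa
HOXA11: aggtattgAGAATGGtctt
The match to the seed of the passenger strand, GTAACTT, was in HOXD8 and in 13.6% of the tested genes. These matches are letters in the annotated 3′ UTR, the lengths of the UTRs were not matched, and their part in any change was not tested. HOXB4, HOXB9, HOXC9 and HOXD4 held none of these seed matches.

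Of 8 TALE partners, 7 were tested, and by the same edgeR test 3 were higher and 3 lower in knockdown cells, none of them DE, where 23.3% and 25.0% of all genes were higher and lower. MEIS2 fell from 6617 ± 311 to 4850 ± 54.1, or -0.45 on the log2 scale (adjusted p = 1.25e-06). PBX2 rose from 870.4 ± 36.8 to 1233 ± 44.3, or 0.50 on the log2 scale (adjusted p = 3.61e-06). MEIS3 rose from 1140 ± 72.3 to 1521 ± 41.8, or 0.42 on the log2 scale (adjusted p = 1.96e-05). The median log2 fold change of the 7 tested partners was 0.06, and the summed level of the 8 was 386 to 397 CPM in control and 351 to 358 in knockdown libraries.

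Of the 18 RNAs antisense to or within the HOX clusters, 8 were tested, of which 3 were higher and 0 lower in knockdown cells, where 23.3% and 25.0% of all genes were. Without control replicate 2, only the call of HOXA-AS2 was kept among the 8. Their median was 0.20 on the log2 scale. HOXA-AS2, which overlaps HOXA3 and HOXA4 on the other strand, had 492.5 ± 14.9 normalized counts in control and 570.5 ± 11.1 in knockdown cells (log2 fold change 0.21, adjusted p = 0.0102, edgeR). HOTAIRM1, a noncoding RNA of the HOXA cluster, rose from 59.8 ± 3.39 to 81.4 ± 11.8 (0.43, adjusted p = 0.0361, and 0.0516 at a log2 fold change of 0.44 without control replicate 2). HOXB-AS1, which overlaps HOXB2 and HOXB3 on the other strand, was called DE at 1.00 (adjusted p = 0.0357, and 0.0828 at 0.86 without control replicate 2), from counts of 15, 7 and 8 in control and 26, 13 and 25 in knockdown libraries, which overlap. HOTAIR, encoded in the HOXC cluster, had 1 to 7 counts per library and HOTTIP, at HOXA13, 0 to 4. The counts used keep the strand, so reads of these RNAs and of the HOX genes on the opposite strand were counted apart.

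The genes that flank the clusters and the regulators of HOX chromatin moved in both directions, and their counts stand beside the 23.3% of all genes that were higher and the 25.0% that were lower. Of 14 flanking genes 8 were tested, 2 higher (MTX2 at 0.23 and SMUG1 at 0.27) and 2 lower in knockdown cells. CBX5, beside the HOXC cluster, which encodes heterochromatin protein HP1 alpha, was the lowest of these at -0.40 (adjusted p = 3e-05, edgeR). EVX1, which borders HOXA13, was at 0 in every library. A list of 12 genes held the Trithorax side, which keeps HOX genes active, together with demethylases and DOT1L. Of these, 4 were higher and 1 lower (2 without control replicate 2, with WDR5 at -0.12). By edgeR, the smallest adjusted p were those of KMT2B (0.48, adjusted p = 1.89e-06), DOT1L (0.47, adjusted p = 2.32e-06) and the demethylase gene KDM6B (0.50, adjusted p = 1.12e-05). Of 18 genes of the Polycomb side, which keeps HOX genes silent, 4 were higher and 4 lower, among them PHC1 (0.29), JARID2 (0.27) and PHC2 (-0.15). The insulator protein gene CTCF was at -0.19 (adjusted p = 0.0014). None of the flanking genes and of these chromatin regulators was DE by this test. The median log2 fold change was 0.01 for the flanking genes, -0.07 for the list of the Trithorax side and demethylases, and -0.06 for the Polycomb side. The sign of the median of -0.07 depends on control replicate 2. Without that library, KMT2A went from -0.22 to 0.01, KMT2C from -0.22 to 0.03 and KMT2D from -0.26 to 0.003.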

How the data were processed

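RNA-sequencing of 12Z cells was analysed in 3 control and 3 LINC01133 knockdown libraries. The authors aligned the reads with STAR 2.7.6a to GRCh38.p13 with GENCODE v36, discarded reads with more than 1 mapping position and deposited raw counts of read pairs per gene. The column that held 93.97% of the stranded counts was used, and 3.88% to 4.23% of the reads of a library fell on more than 1 gene and were not counted. Genes were kept by filterByExpr (minimum count 10), scaled by TMM and tested with the quasi-likelihood test of edgeR 4.0.16 in R 4.3.3, in a model of the condition alone, and p-values were adjusted over all genes by the Benjamini-Hochberg method. Differential expression required a fold change over 1.5 and an adjusted p under 0.05. RPKM used TMM-scaled counts and the exon bases of GENCODE v44. This annotation, of the same genome build, had 31 of the 39 gene versions of the files.

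Means of normalized counts carry the SD of 3 libraries. The study calls them biological replicates, and the p-values measure the spread between them. In simulated data for this comparison, edgeR (15000 genes tested) recovered 89 of 100 genes changed 1.5-fold and 98 of 100 changed 2-fold. DESeq2 1.42.0 (15155 tested) recovered 83 and 98. The changed genes were drawn only from those above a minimum level, so this recovery does not cover members with few counts, such as HOXD9. Replicates of the groups share a number in the labels. Same-numbered libraries deviated together with correlations of -0.015, 0.0049 and 0.057, so the numbers were not taken to pair them. No pair of libraries agreed within sampling noise.

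The members and gene lists were chosen with earlier results of these data known. The members were to be named, with LINC01133 and up to 3 genes per list by smallest adjusted p. HOTAIRM1, HOTAIR, HOTTIP, EVX1, CTCF, the marker genes and the HOX genes of the ratios were singled out after their values were seen. Values of some genes are not reported here. The 3′ UTRs were those of the canonical transcripts of GENCODE v44, and siRNA strands were taken from the study's oligo table. Alternatives were DESeq2, size factors by the median of ratios, scaling by library size alone, no filter, at least 10 counts in every library, unstranded counts, a replicate block, other fold change cutoffs, other levels for a gene that is on, exclusive exon bases and each library left out in turn.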

Additional observations from a re-analysis of the deposited data

How the results depend on the processing

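HOXA7, HOXA3, HOXB4 and HOXB9 kept their direction and an adjusted p under 0.05 in all 13 alternatives of the fit, whereas HOXA13, HOXB6, HOXC9 and HOXD4 did not. Of the HOX genes, 3 were higher with DESeq2 and 10 with library size alone, and 3 to 6 with each library left out. The count of lower genes was 1 with DESeq2 and 1 to 3 with each library left out. The count of DE genes that were higher was 1 with DESeq2, 5 with library size alone, 0 at a fold change over 2, 0 when tested against a fold change of 1.5, and 0 to 4 with each library left out. That of lower DE genes was 1 without a filter (HOXC5) and 0 to 2 with each library left out. The number of HOX genes on in control cells stayed within 1.5 times of 20 in all alternatives. Library size alone moved the median of all genes to 0.065 and turned HOXD8 to 0.027, HOXA9 to 0.029, HOXC8 to 0.024 and HOXB7 to 0.038. It gave 4 higher and 1 lower flanking gene and 2 lower Polycomb genes. Without control replicate 2, a setting added after the data were seen, 1 antisense RNA was higher. In the list of the Trithorax side and demethylases 2 genes were lower, and the other list counts stayed within 1.5 times. Unstranded counts turned HOXA2 to -0.038 and HOXA6 to -0.032. With each library left out, the sign turned within -0.080 to 0.0075 for HOXD8, -0.043 to 0.096 for HOXA2, -0.31 to 0.075 for HOXA4, -0.068 to 0.185 for HOXA6, -0.044 to 0.088 for HOXC6, -0.078 to 0.012 for HOXC8 and -0.063 to 0.0072 for HOXB7. In none of these was the gene past the threshold, and the causes were not tested. With exclusive exon bases, the control shares were 63.7% for HOXA, 30.8% for HOXB and 4.52% for HOXC, and the knockdown shares 31.3% for HOXB and 4.44% for HOXC. With unstranded counts, the control shares were 61.3%, 32.6% and 4.92%, and the knockdown shares 59.6%, 33.7% and 5.14%, with 1.58% for HOXD. With the replicate number as a block, 5 HOX genes were higher and 2 lower, the call of HOXC9 was lost (adjusted p = 0.0507), and no other HOX call changed. Counts limit what could be shown for HOXA13, HOXB8, HOXC9, HOXC10, HOXD4, HOXD8 and HOXD9, each under 70 normalized counts per library, and for the 12 genes not tested. Where leaving out a library left a group with 2, both groups shared 1 estimate of the spread.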
